A study of Homo sapiens with 4 samples.

Results

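ATF3 CUT&Tag signal was examined at the gene that encodes ATF3 itself. The locus was taken as hg19 chromosome 1 from 212688676 to 212844119, which is the ATF3 gene (212738676 to 212794119, plus strand) with 50 kb on each side, and every peak of the 4 deposited lists that overlapped this window was kept. Peaks sharing at least 1 bp were merged, which gave 13 regions at the locus, of 44826 regions on chromosomes 1 to 22 and X. The cells were SW480, an established line from a colorectal adenocarcinoma. They were cultured for 24 h in cystine-restricted medium (CR) or in full medium (FM), each with 2 libraries and the same ATF3 antibody. Cystine is the oxidised form in which cultured cells import cysteine. The labels name no genotype or further agent, and all 4 libraries come from this single line.

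ATF3 belongs to the bZIP transcription factors, which bind DNA as dimers at CRE and AP-1 type sites. It is produced at low levels in resting cells and is induced by many stresses, amino acid shortage among them through ATF4. ATF3 is known to bind the promoter of its own gene and to repress it. The gene has an outermost start, used by long transcripts, and a main start of the short transcripts, placed near 212782000, which is 43324 bp further along. CUT&Tag brings a transposase to the antibody-bound protein, and the transposase cuts and tags the surrounding DNA. Libraries without the ATF3 antibody were not used here, and ATF3 transcript and protein levels were not analysed here.

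The promoter below is the RefSeq sequence of build GRCh38.p14, plus strand, 250 bases before to 50 bases after the start. It is called outermost because its start comes first of the ATF3 promoters in RefSeq's table. Its coordinates belong to another build than the peaks and are not compared with them. Whether it lies at the outermost start of the gene on hg19 was not checked. RefSeq's table gave 2 ATF3 promoters in all, and the promoter at the main short-form start was not among them. Capitals mark the 1 match found.
ATF3 outermost promoter: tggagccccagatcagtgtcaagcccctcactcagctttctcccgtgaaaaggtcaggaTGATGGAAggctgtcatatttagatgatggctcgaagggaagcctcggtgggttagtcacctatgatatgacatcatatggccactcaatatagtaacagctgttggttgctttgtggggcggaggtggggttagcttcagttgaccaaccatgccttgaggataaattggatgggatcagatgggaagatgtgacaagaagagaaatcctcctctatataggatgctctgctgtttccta
For this, 5 motifs were searched on both strands. They were the full CRE, TGACGTCA, its shorter form TGACGT, which the full CRE contains, a variant of the CRE, TGACGCAA, the AP-1 site TGACTCA, and the motif TGATGNAA, the core of the amino acid response element bound by ATF4 with C/EBP factors. The capitals are a match to TGATGNAA that begins at base 60 of the 300, and 3.62% of 35116 RefSeq promoters of this length hold this motif. The CRE TGACGTCA was present in 1.85% of them, TGACGCAA in 0.513%, the AP-1 site TGACTCA in 4.95% and TGACGT in 7.98%. None of these 4 was found in the outermost ATF3 promoter, and the other ATF3 promoter of the table held none of the 5 motifs. These are letter matches only, and no genome of the peaks' build was used to read the sequence under the peaks.

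The deposited lists give no read counts. Each peak's summit pileup, the number of tags stacked at its highest point, was worked out from the authors' fold enrichment and −log10 p. The pileup was then divided by the genome background of its library, the expected pileup over the whole genome. It scales with the depth of the library. This background was 1.30 and 1.08 tags in CR replicates 1 and 2 and 1.11 and 1.32 tags in FM replicates 1 and 2. Heights below are summit pileups over this genome background unless tags are named. Nothing in the labels says whether the 2 libraries of a medium came from separate cultures, so the tests measure the spread between libraries, which may be technical.

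The locus held more listed peaks under cystine restriction. CR replicates 1 and 2 had 11 and 11 peaks, against 6 and 7 in FM replicates 1 and 2, a ratio of the means of 1.69. The same ratio over all peaks on chromosomes 1 to 22 and X was 1.73, so the locus followed the whole lists in the number of peaks. Both CR numbers were above both FM numbers, but with 6 ways to assign 4 libraries to the media an exact two-sided permutation test cannot give a p under 0.33, and p was 0.33. The peaks covered 7354 and 6313 bp in the CR libraries, against 5513 and 5020 bp in the FM libraries, a ratio of 1.30 and again an exact permutation p of 0.33. Covered bases were not worked out for the whole lists, so this ratio has no value beside it. Median peak widths over chromosomes 1 to 22 and X were 415 and 392 bp in the CR libraries, against 377 and 376 bp in the FM libraries. When the same number of top peaks was taken from each library, 17447, the ratio of peak numbers at the locus was 1.08.

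**Figure D1:**
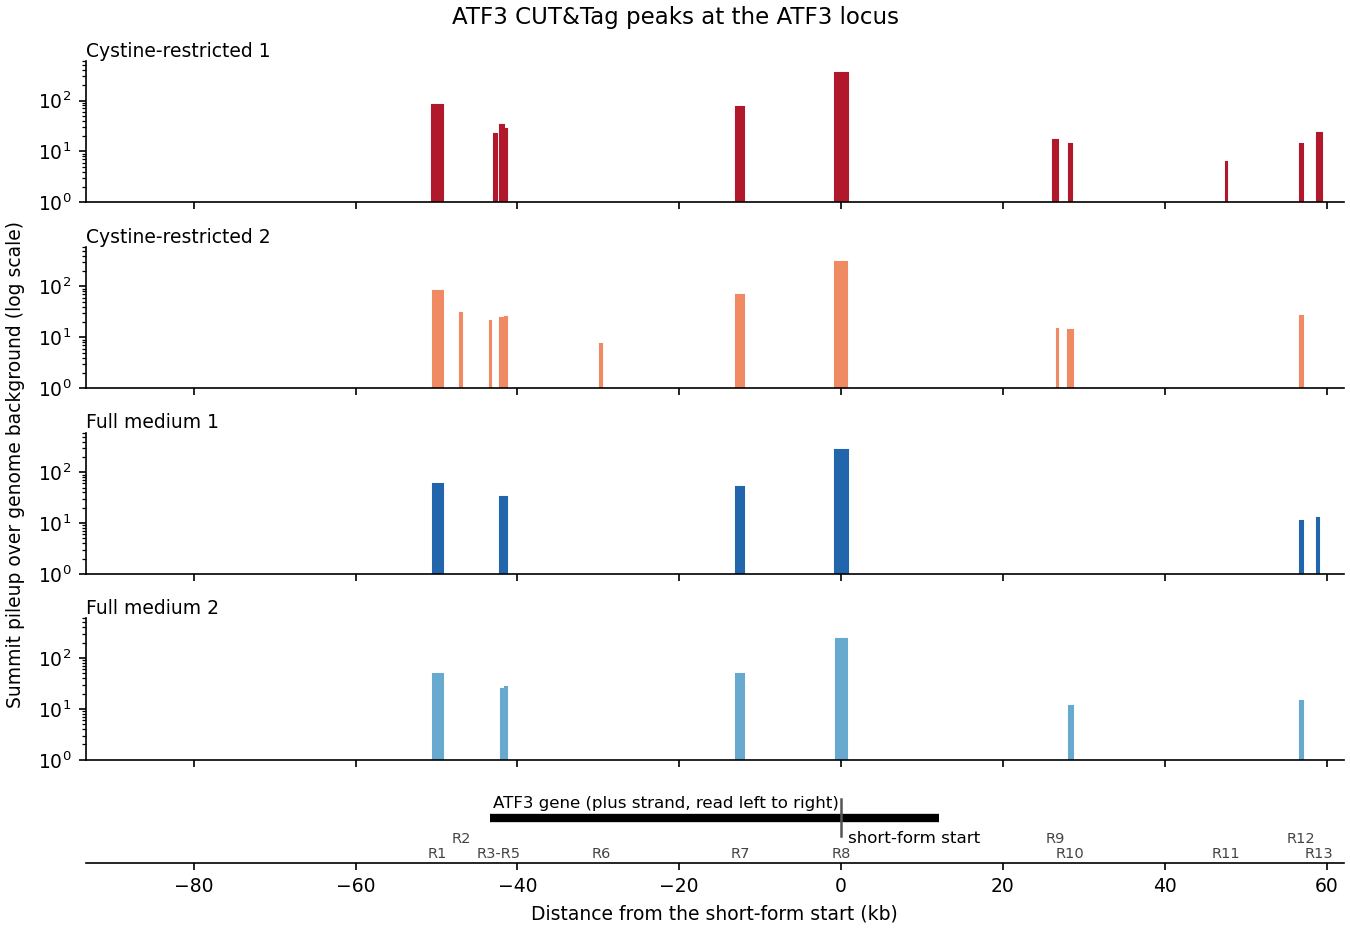
Peaks of the 4 libraries along the ATF3 locus. The horizontal axis is the distance from the main short-form start in kb, bar width is the peak's extent, and bar height is the summit pileup over the genome background on a log axis that begins at 1, the background itself. The tallest peak, at the short-form start, and 4 others stand in every library, and the CR tracks hold 11 peaks each against 6 and 7 in the FM tracks.

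Of the 13 regions, numbered R1 to R13 along the chromosome, 5 had a peak in all 4 libraries, which was the case for 23.0% of all regions. One region, R9, was gained, meaning that it had a peak in both CR libraries and in neither FM library, and 12.7% of all regions were gained. No region at the locus was lost, the reverse case, which held for 0.386% of all regions. Counting regions listed in 1 or both CR libraries and in no FM library, there were 6 of 13 at the locus, beside 49.1% of all regions. None of the 13 was listed in FM libraries alone, beside 10.3% of all regions. The shares of CR-only and gained regions at the locus were thus near those of all regions. The locus held 8.36 regions per 100 kb, against 1.51 per 100 kb over chromosome 1 between its first and last peak. Other windows centred on a gene were not compared.

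The strongest region by far was R8, at the main short-form start of ATF3, from 212781273 to 212782894, 1622 bp wide. Its summit pileup was 451 and 322 tags in CR replicates 1 and 2, against 305 and 308 tags in FM replicates 1 and 2. By the authors' −log10 p the peak ranked 41st of 34140 and 56th of 29903 in the CR lists, against 45th of 17697 and 49th of 19395 in the FM lists. It thus lay within the top 0.254% of peaks in every library, and its mean height was above that of 99.8% of the 10331 regions found in all 4 libraries. Signal of this rank was therefore present in full medium as well as under cystine restriction.

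Over the genome background, R8 stood at 348 and 297 in the CR libraries, against 276 and 234 in the FM libraries. The groups did not overlap, but the nearest pair, CR replicate 2 and FM replicate 1, differed by 0.11 on the log2 scale, less than the 0.23 and 0.24 that separated the libraries within CR and FM. The means were 322 ± 35.7 and 255 ± 29.7 (SD, n = 2 each). The log2 change was 0.34 with a standard error of 0.23, and limma's adjusted p over all 10331 common regions was 0.24. In that fit 37.2% of the common regions rose (adjusted p under 0.05) and 0.155% fell, and the median change of all common regions was 0.53. R8 did not pass the test, and 29.8% of common regions had a smaller change.

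The local background that the peak caller set against R8 comes from the same library. It steps by 0.015 tags, as a count over a window wider than the peak would. R8 would then contribute to it, so it cannot be read as separate surrounding signal. It was 22.6 and 20.9 times the genome background in the CR libraries, against 18.9 and 16.1 times in the FM libraries. The authors' fold enrichment, which is taken over that local background, was 14.9 and 13.6 in the CR libraries, against 13.9 and 13.9 in the FM libraries. How much of the local background came from R8 was not measured. With this fold the log2 change of R8 was 0.03 (standard error 0.16, limma adjusted p = 0.91), beside a median of 0.21 over all common regions. The fold is taken in the same way for every region, and limma called 5 common regions with it, against 3857 with heights over the genome background.

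The summit of R8 fell on the same base in all 4 libraries, position 212782070, which is 70 bp past the approximate short-form start. Such an exact match was found in 32 of the 10331 common regions, or 0.310%, and the median range of summits over the libraries was 124 bp (interquartile range 34.5 to 324 bp). These shares are over regions of all heights, and regions as high as R8 were not compared separately. The peak itself was 1593 and 1412 bp wide in the CR libraries, against 1622 and 1319 bp in the FM libraries, so widths overlapped between the media.

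**Figure D2:**
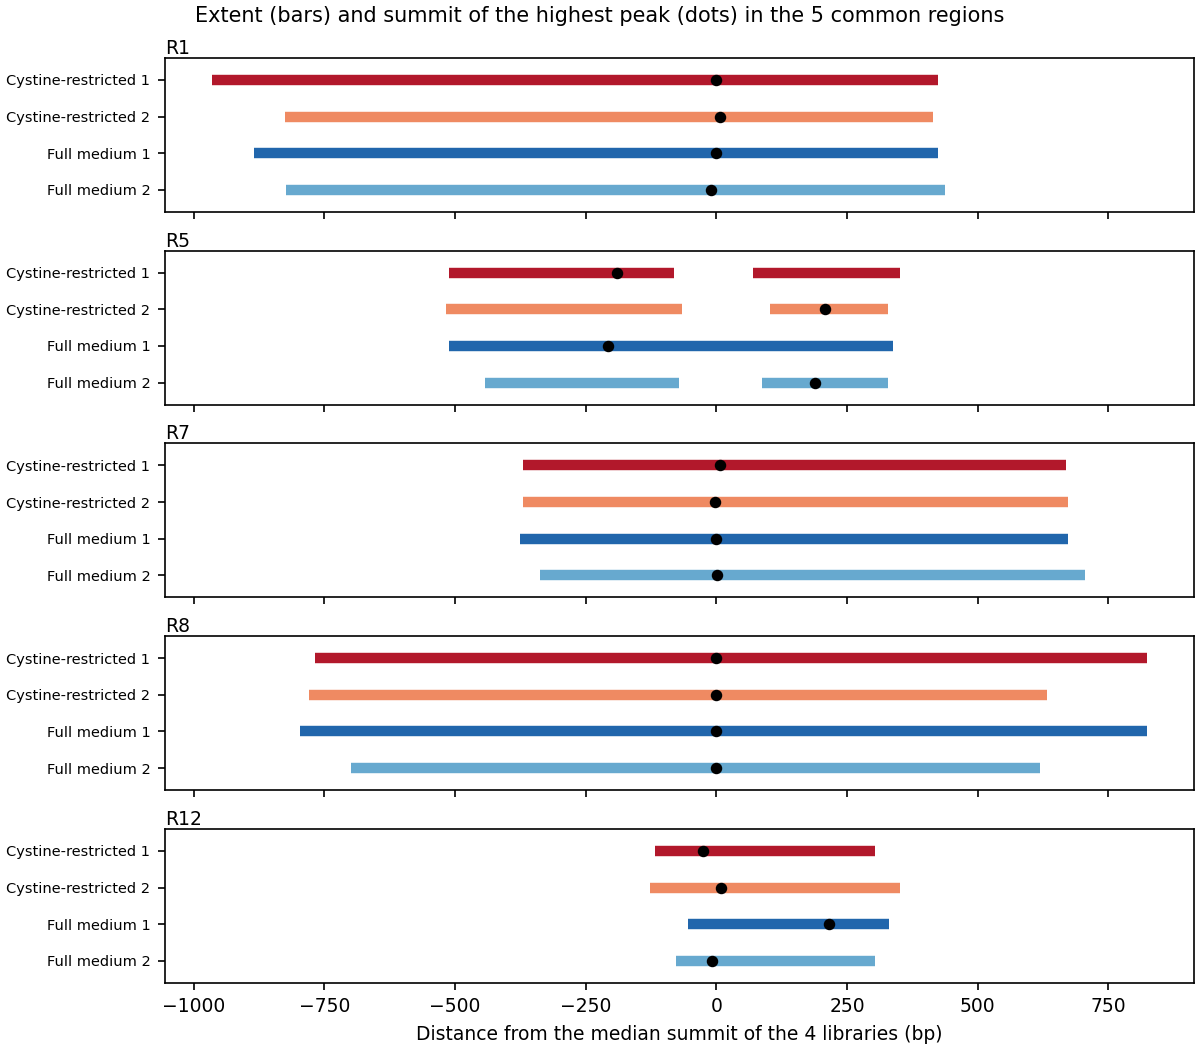
Extent of the peaks (bars) and summit of the highest peak (black dots) in each library, in the 5 regions of the locus found in all 4 libraries. The horizontal axis is the distance in bp from the median summit of the 4 libraries. Dots align in R8, within 10 bp in R7 and within 17 bp in R1, and in R5 they switch between a pair of neighbouring peaks.

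R7 lay inside the gene ahead of the short-form start, from 212768969 to 212770049, with summits 12648 to 12658 bp upstream of that start. Its summit pileup was 99 and 72 tags in CR replicates 1 and 2, against 57 and 63 tags in FM replicates 1 and 2. Its height was 76.3 and 66.4 in the CR libraries, against 51.5 and 47.8 in the FM libraries, with no overlap between the media. The log2 change was 0.52 (standard error 0.23), beside a median of 0.53 over all common regions, and limma's adjusted p was 0.083. The 4 summits fell within 10 bp, and 5.89% of common regions, of all heights, had a smaller range.

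R1 lay ahead of the whole gene, from 212731459 to 212732862, 5814 to 7217 bp before the gene's outermost start. Its summit pileup was 108 and 88 tags in CR replicates 1 and 2, against 66 and 64 tags in FM replicates 1 and 2. The heights were 83.2 and 81.2 in the CR libraries, against 59.6 and 48.6 in the FM libraries. The media did not overlap here either, and the CR libraries lay closer to each other than the FM libraries did. The log2 change of 0.61 (standard error 0.23) had an adjusted p of 0.052 in limma. Without FM replicate 1 it was 0.76 with an adjusted p of 0.030, the lone FM library being assumed to vary like the others. Without FM replicate 2 it was 0.46 (limma adjusted p = 0.21), and without CR replicate 1 or 2 it was 0.59 or 0.63 (limma adjusted p = 0.21 or 0.15).

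R5 lay just inside the gene, from 212739892 to 212740760, that is 1216 to 2084 bp past the outermost start. It was made of 2 neighbouring peaks in CR replicates 1 and 2 and in FM replicate 2, and of a single 850 bp peak in FM replicate 1. The first summit lay within 17 bp in the 4 libraries and the second within 18 bp in the 3 libraries that list it apart. The first peak stood at 32.4 and 24.0 in the CR libraries, against 32.5 and 24.3 in the FM libraries. The second stood at 27.0 and 24.9 in the CR libraries, against 27.3 in FM replicate 2. The first peak thus covered nearly the same heights in both media, and the single FM value of the second lay just above both CR values.

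Taking the higher peak of each library, R5 had a log2 change of −0.07 (standard error 0.24, limma adjusted p = 0.82), and 5.72% of common regions had a smaller change. After each library was divided by its median pileup over the common regions, the change of R5 relative to the rest was −0.64 (standard error 0.21, unadjusted p = 0.012 in limma). With adjustment over all common regions its p was 0.13, so R5 did not pass as different from the rest, where 1.71% of regions were called higher and 1.20% lower. The direction of the change before this scaling turned to 0.12 without CR replicate 2 and to 0.06 without FM replicate 1.

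R12 lay in the downstream flank, from 212838651 to 212839129, 44532 to 45010 bp past the end of the gene. Its summit pileup was 18 and 28 tags in CR replicates 1 and 2, against 12 and 19 tags in FM replicates 1 and 2. Its height was 13.9 and 25.8 in the CR libraries, against 10.8 and 14.4 in the FM libraries. The media overlapped, and CR replicate 2 stood apart from the other 3. The log2 change was 0.60 (standard error 0.29, limma adjusted p = 0.11), and it was 0.15 (adjusted p = 0.74) without CR replicate 2 and 1.05 (adjusted p = 0.025) without CR replicate 1.

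**Figure D3:**
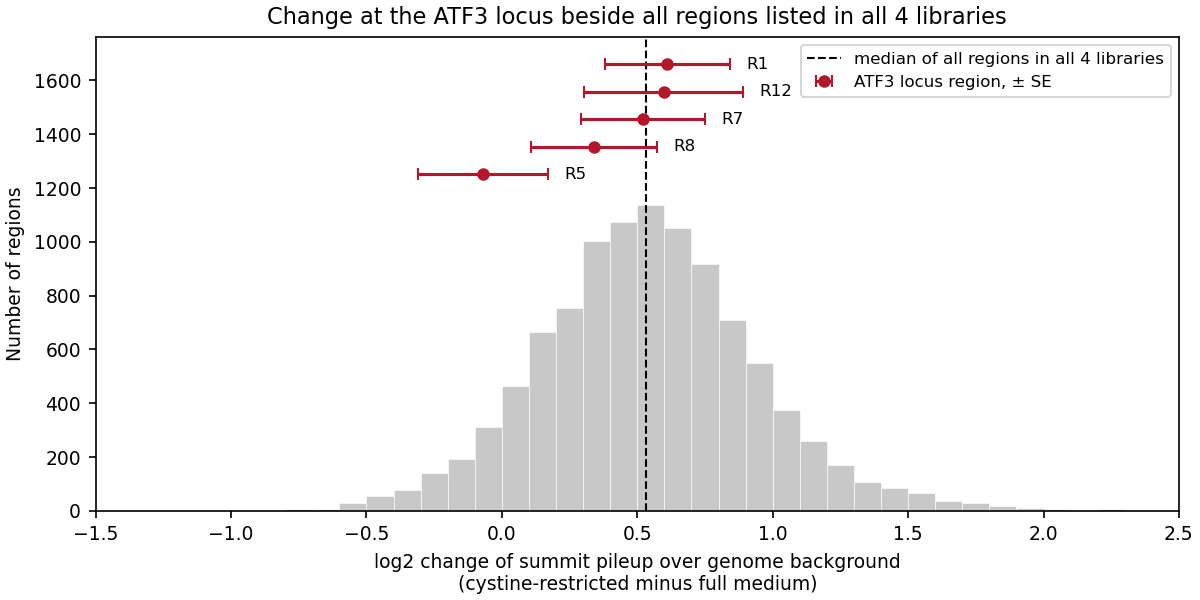
Histogram of the log2 change of summit pileup over genome background, CR minus FM, over the 10331 regions in all 4 libraries, with the number of regions on the vertical axis and the median, 0.53, as a dashed line. Red points with standard error bars are the 5 common regions of the ATF3 locus, placed above the histogram at arbitrary heights. R1, R7, R8 and R12 lie between 0.34 and 0.61, and R5 at −0.07.

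Of the 5 common regions of the locus, 3 (R1, R7 and R8) had both CR heights above both FM heights, beside 72.8% of all common regions, and none had the reverse, beside 2.38%. Their median log2 change was 0.52, against 0.53 over all 10331 common regions (interquartile range 0.29 to 0.78). None of the 5 rose or fell at an adjusted p under 0.05 in limma, beside 37.2% of all common regions that rose and 0.155% that fell. At an unadjusted p under 0.05 there were 2 of 5, R1 with 0.020 and R7 with 0.040 in limma, beside 51.1% of all common regions. After scaling by the median pileup of each library, which removes the change shared by all common regions, the 5 changes ran from −0.64 to 0.04 and none passed. R7 and R8 then turned to −0.048 and −0.23. The changes at the ATF3 gene were thus not distinguishable from the change shared by common regions at this number of libraries.

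Near the outermost start the lists differed from library to library. R3, from 212738582 to 212738749, covered the outermost start itself and was listed in CR replicate 2 alone, with 23 tags at a height of 21.2. R4, from 212739133 to 212739488, was listed in CR replicate 1 alone, with 28 tags at 21.6. R2, from 212734871 to 212735157, was again in CR replicate 2 alone, with 32 tags at 29.5, and its local background of 9.60 times the genome background kept the authors' fold at 2.89. A height alone therefore does not decide a listing here.

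Absence from a list sets only a limit. If the local background of R3 in the other libraries is taken as the same multiple of their genome background, CR replicate 1 would have needed 18 tags to be listed, FM replicate 1 17 tags and FM replicate 2 19 tags. These limits correspond to heights of 13.9, 15.4 and 14.4, below the 21.2 of CR replicate 2. For R4 the limits were 12.9 in CR replicate 2, 13.6 in FM replicate 1 and 12.1 in FM replicate 2, against a height of 21.6 in CR replicate 1. Each of these 2 regions was missing in the other CR library too, so a difference between the media cannot be read from them.

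In RefSeq the next gene past ATF3 is GARIN4, with BATF3, a bZIP partner of JUN proteins, beyond it, and which downstream regions fall in or near them on hg19 was not analysed here. The gained region R9 lay in the downstream flank, from 212808216 to 212808856, 14097 to 14737 bp past the end of the gene. Its summit pileup was 22 and 16 tags in CR replicates 1 and 2, at heights of 17.0 and 14.8, and no peak was listed in the FM libraries. With the local background scaled in the same way, FM replicates 1 and 2 would have needed 11 and 13 tags, or heights of 9.94 and 9.86, to be listed. The CR peaks were weak within their lists, ranking 15794th of 34140 and 20282nd of 29903, and their widths were 641 and 150 bp. R9 was no longer gained at a −log10 q of at least 5, since CR replicate 2 had 4.54.

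R10 began 1204 bp past R9, from 212810060 to 212810610, and was listed in both CR libraries and in FM replicate 2. Its height was 13.9 and 13.8 in the CR libraries, against 11.4 in FM replicate 2, while FM replicate 1 would have needed 9.04 to be listed. The listed heights thus lay within a narrow span, but only 1 of them came from full medium. The height in FM replicate 1, which lists no peak there, is not known. R13, at the far end of the window from 212840791 to 212841391, was listed in CR replicate 1 at 23.1 and in FM replicate 1 at 12.7, and in neither replicate 2.

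R6 and R11 were the weakest regions and each rested on 8 tags in a single CR library. R6, from 212752157 to 212752471 inside the gene, had a height of 7.38 in CR replicate 2. R11, from 212829508 to 212829726 in the downstream flank, had a height of 6.16 in CR replicate 1, where it ranked 33191st of 34140 peaks. The least pileup that is listed at the genome background was 6 tags in CR replicate 2 and 7 in the other libraries, so both lie at the edge of what these lists can show.

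**Figure D4:**
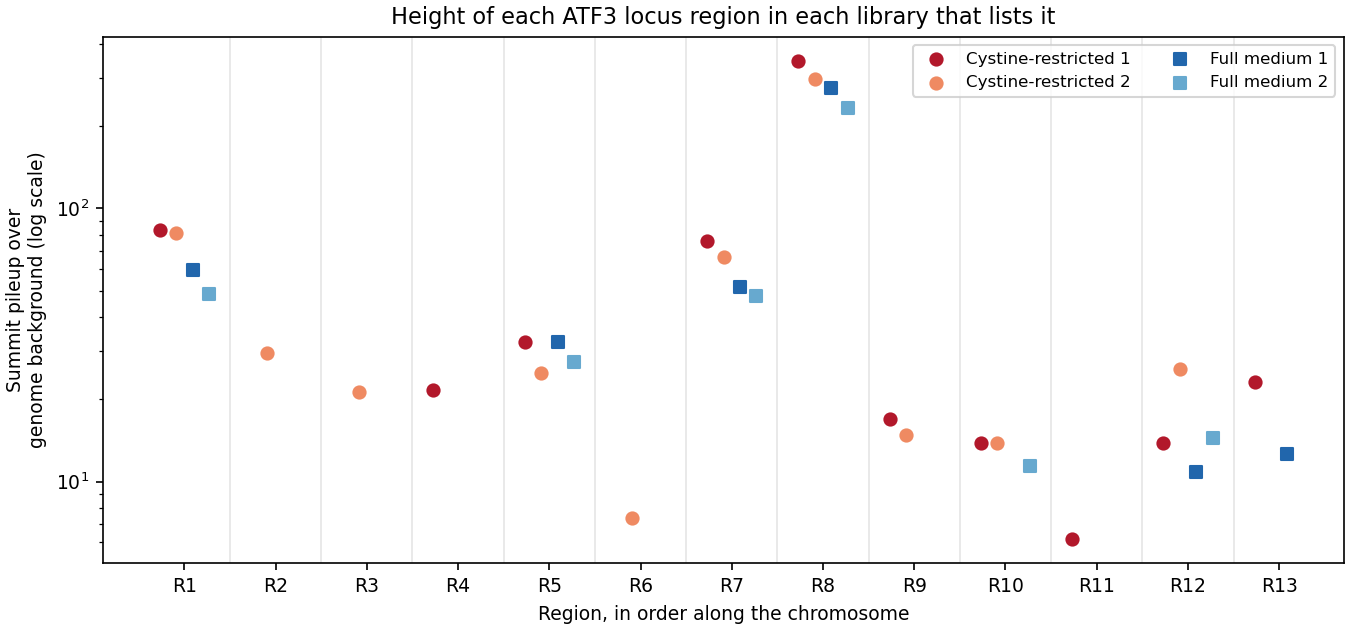
Summit pileup over the genome background, on a log axis, for each of the 13 regions in each library that lists it. Circles are CR libraries and squares FM libraries, and a missing symbol means that no peak was listed. R8 stands between 234 and 348, R1 and R7 between 47.8 and 83.2, and the remaining regions below 33.

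In order of height, the regions found in all 4 libraries ran R8, R1, R7, R5 and R12 by their mean in each medium. R8 was separated from the next region in every library. R1 stood above R7, the next in this order, within every library. Across libraries their heights overlapped in FM (59.6 and 48.6 for R1, 51.5 and 47.8 for R7) and not in CR. The heights of R5 and R12 overlapped in the CR libraries, where R12 of replicate 2 reached 25.8.

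The 3 regions outside the locus whose heights over the 4 libraries lay closest to those of R8 were chosen by Euclidean distance on the log2 scale, among common regions. The closest was on chromosome 19 from 55849689 to 55851196, at a distance of 0.24, with heights of 322 and 316 in the CR libraries, against 290 and 264 in the FM libraries. The next were on chromosome 17 from 6655807 to 6657442, at 0.39, and on chromosome 20 from 23342006 to 23343576, at 0.42. No gene was assigned to these positions, and the likeness describes 4 libraries only.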

How the data were processed

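Members, lists and tests were chosen with earlier results of these data known. The submitters' processing notes name MACS2 2.2.7.1, BWA 0.7.17, fastp 0.19.7, bcl2fastq 2.17 and build hg19. Peak-calling options were not given in the sources read here. The authors deposited 1 narrowPeak list per library, with a fold enrichment (a ratio), a −log10 p, a −log10 q, a whole-number score and a summit offset for each peak. Every deposited −log10 q was at least 1.30. These values are the authors' own and describe peaks within a list.

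In MACS2 the fold is (pileup + 1)/(background + 1) and p is a Poisson tail, so whole-number pileups could be worked out. For 100% of peaks they gave back the authors' −log10 p within 0.1%, and the backgrounds were the lowest value of the list or a multiple of 0.015 tags (within 0.1 of a step) for 100%. The highest peak of a library stood for it in a region. The log2 of pileup over genome background was fitted with limma 3.58.1 (R 4.3.3) over the 10331 regions in all 4 libraries, 5 of them at the locus, with Benjamini-Hochberg adjustment and a threshold of 0.05, and the fit was tested on simulated data. Python 3.11.15, pandas 2.3.3 and scipy 1.17.1 were used. Named regions are the 13 of the locus and the 3 closest to the strongest. Since the files hold no read counts and no annotation of hg19 was used, planned comparisons at other stress genes were not made. Alternatives were other scalings, thresholds, flanks and overlaps, leaving out each library, and the replicate number as a block. No interval of counting error was given for the pileups.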

Additional observations from a re-analysis of the deposited data

How the results depend on the processing

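The ratio of peak numbers at the locus stayed between 1.08 and 1.83 and that of covered bases between 1.06 and 1.40 over the alternatives, lowest with equal numbers of top peaks; within same-numbered pairs (replicate block) they were 1.70 and 1.30. Regions in all 4 libraries numbered 4 at a −log10 q cutoff of 5 and 4 with equal numbers of top peaks. They numbered 3 without a flank and 9 with 100 kb of flank, and 5 to 7 with 1 library left out, fewer libraries being required. The 7 came without FM replicate 1, whose single peak joins the 2 neighbouring peaks of R5. In that setting R5 counted as 2 regions, and R10 was listed in every library kept. The count of gained regions was 0 at a −log10 q cutoff of 5, with equal numbers of top peaks, without a flank and with a reciprocal overlap of 50%, and 2 with 100 kb of flank. It was 1 to 4 with 1 library left out and 4 in each pair taken alone (replicate block). Lost regions numbered 0 in each alternative run. The median log2 change of the 5 common regions of the locus was 0.088 with the authors' fold enrichment, beside 0.21 over all common regions. With 1 library left out it was 0.42 to 0.46, beside 0.44 to 0.62 over all common regions. The locus median was the lower one without CR replicate 1, CR replicate 2 or FM replicate 1, and the higher one without FM replicate 2. After scaling by the median pileup, which removes the shared change, it was −0.048, beside −0.036 over all common regions. After that scaling R7 and R8 turned to −0.048 and −0.23. The change of R5 over the genome background, without that scaling, ran from −0.26 to 0.12 with 1 library left out. It turned to 0.12 without cystine-restricted replicate 2 and 0.06 without full-medium replicate 1. Of all common regions limma called 3857, against 1384 with no scaling, 301 after scaling by the median pileup and 5 with the fold enrichment; with 1 library left out it called 1591 to 4470. The adjusted p in limma ran over the 8 alternatives from 0.030 to 0.93 for R1, 0.13 to 0.87 for R5, 0.076 to 0.92 for R7, 0.17 to 0.91 for R8 and 0.025 to 0.97 for R12. The replicate number as a block changed no call at the locus. Deviations of same-numbered libraries had a correlation of 0.01, and a pairing was not taken from 2 numbers. The causes of these differences were not tested unless named. Depth limits the weakest regions, as 6 or 7 tags are the least listed.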
